A study of Homo sapiens with 8 samples.

Results

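The epithelial identity of breast, skin and other lining tissues is kept by a small set of transcription and splicing factors. Measured here were 9 genes of this set: the p53-family gene TP63, the grainyhead-like genes GRHL1, GRHL2 and GRHL3, the zinc-finger gene OVOL1, the ETS-family genes ELF3 and EHF, and the splicing-factor genes ESRP1 and ESRP2. They were taken by gene symbol, with every RefSeq transcript listed for them, out of the whole table of 48175 transcripts, and all 9 were present, with 24 transcripts in all. The cells were HMLE, mammary epithelial cells of human origin that were made to grow without limit in culture. They carried 1 lentiviral shRNA against SOX4, a transcription factor gene of the SoxC family, or a scrambled shRNA, and all were selected with puromycin at 0.5 µg/mL. The groups were SOX4 shRNA with TGF-β for 16 h, SOX4 shRNA untreated, scrambled shRNA with TGF-β for 16 h and scrambled shRNA untreated, with 2 libraries each. Since 1 shRNA was used, an effect of the knockdown and an effect of that shRNA on other transcripts cannot be told apart. Whether the 2 libraries of each group were grown as separate cultures is not stated in the labels, so p-values measure only how far these libraries spread, which may be technical.

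As background, the grainyhead-like factors activate genes of cell junctions and of the epithelial barrier, and OVOL1 represses genes of the mesenchymal state. The p63 protein made from the inner promoter of TP63, called ΔNp63, marks basal cells of stratified and glandular epithelia, while TAp63 forms start at the outer promoter. The ESRP proteins direct the splicing of FGFR2, CD44, ENAH and other transcripts towards their epithelial forms, and the cytokine TGF-β, an inducer of the epithelial-mesenchymal transition, is known to lower several of these factors in mammary cells.

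Levels are given in FPKM, which divides the reads of a transcript by its length and by the size of the library. The table had no decimal mark left in 34.1% of its cells, mostly cells above 1 FPKM with at least 3 decimals, and such a cell had up to 3 possible values 10 times apart. This touched 100 of the 192 cells of the 9 genes. For the 4 genes with a single transcript, GRHL1, GRHL2, OVOL1 and ESRP2, the mark was restored through whole numbers of reads, and these 4 are the members of a fit of 5103 genes so restored. For the other 5 genes, the readings of a transcript that lay closest within and between groups were used, and the lowest set where several were equally close. Tried on the whole-read genes, this rule kept GRHL1 and OVOL1 but took GRHL2 and ESRP2 10 times too low. The GRHL2 difference by SOX4 shRNA in untreated cells, on the log2(FPKM + 1) scale used below, was then 0.17 in place of 0.27. Levels at the lowest readings may thus be too low, and their differences too small. For EHF, where a called result turns on it, the values under other readings are given too.

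The library scales corresponded to 12.6 M to 16.7 M reads. SOX4 itself, the targeted gene, had 2.37 and 1.88 FPKM in SOX4-shRNA cells with TGF-β and 0.92 and 1.02 FPKM in untreated SOX4-shRNA cells. In scrambled-shRNA cells it had 18.7 and 17.6 FPKM with TGF-β and 8.74 and 8.04 FPKM untreated. The ratio of the SOX4-shRNA mean to the scrambled-shRNA mean was thus 0.12 in both conditions at the most probable readings, whose posterior probability was 0.76, so SOX4 was not part of the fit. Among markers, CDH1, the epithelial cadherin gene, lay between 74.1 and 95.4 FPKM in all libraries. KRT8 and KRT18 of the same list lay at 25.8 to 56.5 and 411 to 624 FPKM at the closest readings, while KRT19 was below 1 FPKM in every library. The summed epithelial markers were 662 to 667 FPKM with SOX4 shRNA and 719 to 728 FPKM with scrambled shRNA under TGF-β. Untreated, they were 697 to 716 and 771 to 854 FPKM. The 5 basal markers, KRT5, KRT14 and KRT17 among them, were each above 1 FPKM in every library. Their sum at closest readings was 7058 to 7180 FPKM with SOX4 shRNA and 8346 to 8461 FPKM with scrambled shRNA under TGF-β. Untreated, it was 5261 to 6096 and 7418 to 8058 FPKM. Of 7 luminal markers, GATA3 and MUC1 were also above 1 FPKM in every library, whereas 5 were below it in every library. ELF5 and KIT had no value above 0 once values under 1e-04 FPKM were set to 0. The luminal sum was 8.53 to 8.56 FPKM with SOX4 shRNA and 7.73 to 7.81 FPKM with scrambled shRNA under TGF-β, and it overlapped untreated. All 4 immune and endothelial markers were below 1 FPKM in every library. The fibroblast markers LUM and PDGFRA were also below 1 FPKM, and the summed fibroblast markers were 4.63 to 5.63 FPKM with SOX4 shRNA and TGF-β, 10.7 to 14.1 FPKM with SOX4 shRNA untreated, 15.4 to 17.7 FPKM with scrambled shRNA and TGF-β, and 11.7 to 13.0 FPKM with scrambled shRNA untreated. COL1A1, at 2.59 to 12.8 FPKM the largest part of this sum, rests on closest readings. COL3A1, the single fibroblast marker that could be fitted, averaged 1.86 FPKM in SOX4-shRNA cells and 3.64 FPKM in scrambled-shRNA cells with TGF-β, and 0.98 FPKM in SOX4-shRNA cells and 3.91 FPKM in scrambled-shRNA cells untreated. COL3A1 fell with SOX4 shRNA in both conditions (limma on log2(FPKM + 1), -0.69 ± 0.13, adjusted p = 0.0327, with TGF-β and -1.31 ± 0.13, adjusted p = 0.00325, untreated). The part of these markers in the results below was not tested. In bulk samples, fewer cells of a kind and less RNA per cell cannot be told apart.

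EHF and ELF3 are related ETS factors, of which EHF lay lower and ELF3 higher in SOX4-shRNA cells than in scrambled-shRNA cells, and TP63 is a gene whose outer start gave no measurable RNA here. The windows at their starts are therefore shown, from RefSeq on GRCh38.p14, each running from 250 bases before to 50 bases after a start on the plus strand. Such windows were found for 5 of the 9 genes, and no EHF transcript of the table is tied to either EHF window. Capitals mark matches, on either strand, to 4 motifs: AACAAAG (SOX factors), CAGAC (SMAD factors), AACCNGTT (grainyhead-like factors) and CACCTG (the E-box bound by SNAI and ZEB repressors). No matches overlapped.
EHF, upstream start, chr11:34624007-34624306: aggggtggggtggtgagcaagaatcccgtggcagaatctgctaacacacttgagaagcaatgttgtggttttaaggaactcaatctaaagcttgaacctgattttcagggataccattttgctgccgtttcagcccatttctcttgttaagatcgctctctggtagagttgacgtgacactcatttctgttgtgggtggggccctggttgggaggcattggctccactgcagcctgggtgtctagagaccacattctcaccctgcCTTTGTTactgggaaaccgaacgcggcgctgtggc
EHF, downstream start, chr11:34632316-34632615: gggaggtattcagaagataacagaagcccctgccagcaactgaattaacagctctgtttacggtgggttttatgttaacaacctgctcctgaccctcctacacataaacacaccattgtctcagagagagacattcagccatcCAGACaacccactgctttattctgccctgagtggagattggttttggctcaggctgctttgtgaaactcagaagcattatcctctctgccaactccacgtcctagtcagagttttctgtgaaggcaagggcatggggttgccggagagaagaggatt
ELF3, chr1:202010337-202010636: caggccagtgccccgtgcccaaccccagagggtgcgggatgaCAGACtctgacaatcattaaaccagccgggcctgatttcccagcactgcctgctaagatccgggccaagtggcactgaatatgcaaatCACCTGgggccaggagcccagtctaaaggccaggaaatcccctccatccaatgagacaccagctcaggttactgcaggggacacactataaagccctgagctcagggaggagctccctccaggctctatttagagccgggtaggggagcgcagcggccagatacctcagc
TP63, outer (TAp63) start, chr3:189631139-189631438: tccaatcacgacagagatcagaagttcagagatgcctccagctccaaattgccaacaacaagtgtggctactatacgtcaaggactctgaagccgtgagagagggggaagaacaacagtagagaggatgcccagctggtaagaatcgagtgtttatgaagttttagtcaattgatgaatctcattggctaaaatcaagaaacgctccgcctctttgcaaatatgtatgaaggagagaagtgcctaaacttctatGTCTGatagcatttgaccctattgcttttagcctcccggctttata
The upstream EHF window held 1 SOX match, 15 bases after the start, and the downstream window held 1 SMAD match, 107 bases before the start. The ELF3 window held 1 SMAD match 208 bases before the start and 1 E-box 120 bases before it. The TP63 window held 1 SMAD match, 4 bases after the start. None of the 4 windows held a grainyhead-like match. Of all 35116 such windows, 5.2% held the SOX letters, 45.3% the SMAD letters, 1.73% the grainyhead-like letters and 20.6% the E-box letters, so the SMAD and E-box matches are common by letters alone. A match describes the letters and shows no binding.

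The question of the first comparison was how TGF-β changed these factors in cells with SOX4 knocked down and in scrambled-shRNA cells. A gene was called where its Benjamini-Hochberg adjusted p was under 0.05. OVOL1 rose with TGF-β in SOX4-shRNA cells, and it was the only one of the 4 whole-read members called in any contrast. It is a repressor that acts with the grainyhead-like factors on the epithelial side of the transition. OVOL1 (NM_004561, GRCh37 chromosome 11, 65554534 to 65564685, plus strand) had 3.37 and 4.98 FPKM in SOX4-shRNA cells with TGF-β and 2.25 and 1.44 FPKM in untreated SOX4-shRNA cells, and these groups did not overlap. Scrambled-shRNA cells had 3.03 and 3.95 FPKM with TGF-β and 3.27 and 2.86 FPKM untreated, which overlapped. These values rest on 63 to 213 reads per library.

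The difference in log2(FPKM + 1), the scale of all fitted differences here, was 0.86 ± 0.20 (SE) in SOX4-shRNA cells (limma, Benjamini-Hochberg adjusted p = 0.0454) and 0.14 ± 0.20 in scrambled-shRNA cells (adjusted p = 0.722). The ratio of means was 2.27 in SOX4-shRNA cells. In SOX4-shRNA cells 7.37% of the 5103 genes were called, 5.31% as higher, beside 1 of the 4 whole-read members. In scrambled-shRNA cells 6.39% were called, and none of the 4 members. The difference between the 2 effects, tested as an interaction, was 0.73 ± 0.29 (unadjusted p = 0.0367, adjusted p = 0.994), so the TGF-β effects on OVOL1 were not shown to differ. The OVOL1 call was lost in 10 of 18 alternatives, among them the compared groups alone (adjusted p = 0.122). Leaving out the second SOX4-shRNA TGF-β library (0.64, adjusted p = 0.187), the second untreated SOX4-shRNA library (0.66, adjusted p = 0.175) or any 1 scrambled-shRNA library (adjusted p = 0.0743 to 0.0821) also ended it. With SOX4 shRNA, untreated OVOL1 was 1.84 ± 0.57 FPKM, against 3.07 ± 0.29 FPKM with scrambled shRNA (SD, n = 2 each), and the difference of -0.53 ± 0.20 was not called (adjusted p = 0.217).

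**Figure D1:**
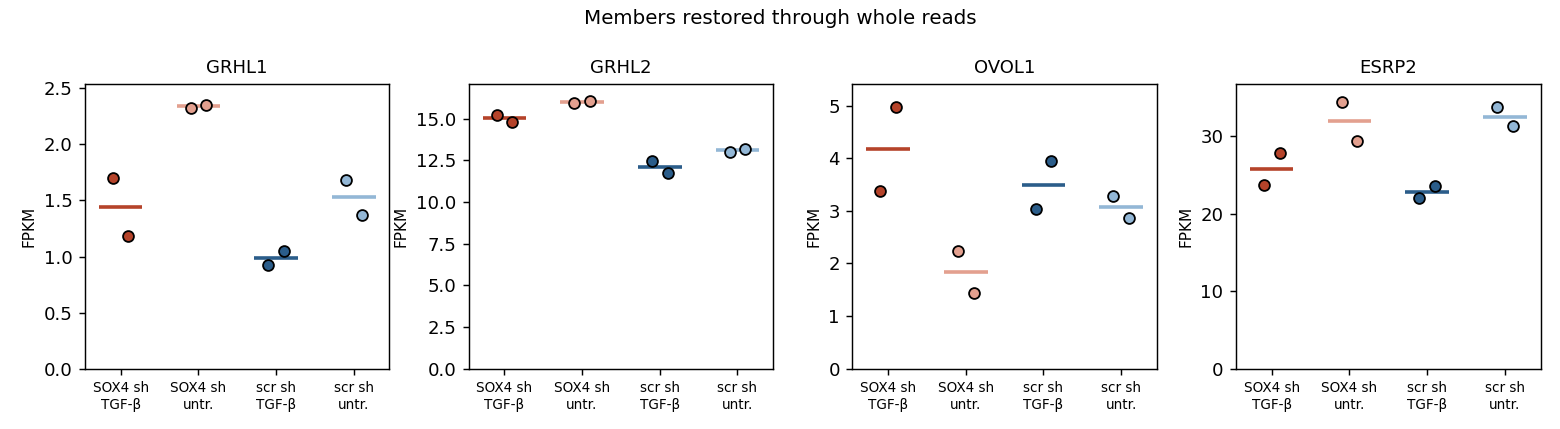
FPKM of GRHL1, GRHL2, OVOL1 and ESRP2 in the 4 groups, 1 point per library and a line at the group mean, on axes that start at 0. ESRP2 has lower points with TGF-β than without it in both kinds of cell, GRHL2 has higher points with SOX4 shRNA than with scrambled shRNA, and OVOL1 is lowest in untreated SOX4-shRNA cells.

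ESRP2 was the most abundant member whose level could be fixed, and it was lower with TGF-β in both kinds of cell without passing the test. Its protein shares the epithelial splicing programme with that of ESRP1. ESRP2 (NM_024939, GRCh37 chromosome 16, 68262936 to 68272005, minus strand) had 23.7 and 27.8 FPKM with TGF-β against 34.4 and 29.4 FPKM untreated in SOX4-shRNA cells. With scrambled shRNA the values were 22.0 and 23.6 FPKM with TGF-β against 33.7 and 31.3 FPKM untreated. The TGF-β libraries lay below the untreated ones in both kinds of cell, with 1236 to 2159 reads per library.

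The fitted differences of ESRP2 were -0.30 ± 0.13 in SOX4-shRNA cells (limma, adjusted p = 0.213) and -0.49 ± 0.13 in scrambled-shRNA cells (adjusted p = 0.0616). In scrambled-shRNA cells ESRP2 was called in the compared groups alone (adjusted p = 0.016), where 872 genes were called against 326 in the main fit. It was also called with voom on whole reads (-0.54, adjusted p = 0.0425), where 389 genes were called. In 16 of 19 alternatives it stayed uncalled, and leaving out 1 library gave -0.54 to -0.44. The ratio of the TGF-β mean to the untreated mean was 0.70 in scrambled-shRNA cells. By SOX4 shRNA, the difference was 0.17 ± 0.13 in TGF-β-treated cells (adjusted p = 0.611), and in untreated cells it was -0.029 ± 0.13 (adjusted p = 0.926). ESRP2 overlaps NFATC3 on the opposite strand, GRHL1, GRHL2 and OVOL1 overlap unnamed genes there, and whether the counting used strand is not given in the sources used here. ESRP2 also overlaps an unnamed gene on its own strand, which counting by strand would not separate.

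GRHL2 was higher in every SOX4-shRNA library than in every scrambled-shRNA library, again without a call. It is the grainyhead-like gene best known for holding mammary epithelial cells in the epithelial state. GRHL2 (NM_024915, GRCh37 chromosome 8, 102504667 to 102681954, plus strand) had 15.2 and 14.8 FPKM with TGF-β and 15.9 and 16.1 FPKM untreated in SOX4-shRNA cells. The scrambled-shRNA libraries gave 12.5 and 11.7 FPKM with TGF-β and 13.0 and 13.2 FPKM untreated. The reads numbered 810 to 1253 per library.

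The SOX4-shRNA means of GRHL2 were thus 1.24 times those of scrambled-shRNA cells with TGF-β and 1.22 times untreated. The fitted differences were 0.29 ± 0.10 with TGF-β (limma, adjusted p = 0.187) and 0.27 ± 0.10 untreated (adjusted p = 0.199). In these contrasts 3.84% and 3.76% of the 5103 genes were called, and none of the 4 members. TGF-β gave -0.087 ± 0.10 in SOX4-shRNA cells (adjusted p = 0.656) and -0.11 ± 0.10 in scrambled-shRNA cells (adjusted p = 0.564).

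GRHL1, which takes part in the barrier functions of keratinocytes, was scarce and combined both patterns. GRHL1 (NM_198182, GRCh37 chromosome 2, 10091822 to 10142405, plus strand) had 1.70 and 1.18 FPKM with TGF-β and 2.33 and 2.35 FPKM untreated in SOX4-shRNA cells. In scrambled-shRNA cells it had 0.93 and 1.05 FPKM with TGF-β and 1.68 and 1.37 FPKM untreated. The groups of each of the 4 pairs did not overlap, at only 47 to 124 reads per library. With 2 libraries a group, values often fall apart without any effect, and the 4 pairs share the same groups. The share of all genes without overlap was not counted, here or for the other members, so non-overlap only describes the values. None of its differences was called: TGF-β gave -0.46 ± 0.15 in SOX4-shRNA cells (limma, adjusted p = 0.107) and -0.34 ± 0.15 in scrambled-shRNA cells (adjusted p = 0.203), and SOX4 shRNA gave 0.29 ± 0.15 with TGF-β (adjusted p = 0.389) and 0.40 ± 0.15 untreated (adjusted p = 0.19). The interaction was called for none of the 4 whole-read members, among 9 of 5103 genes (0.176%).

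By level, ESRP2 stood above GRHL2 in every library, and GRHL2 above OVOL1 and GRHL1 in every library. OVOL1 stood above GRHL1 in 3 groups, whereas in untreated SOX4-shRNA cells both OVOL1 values, 2.25 and 1.44 FPKM, lay below the GRHL1 values of 2.33 and 2.35 FPKM.

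EHF was called between the kinds of cell both with and without TGF-β when its transcripts were summed, and it was lower with SOX4 shRNA. It encodes an ETS factor of glandular and stratified epithelia. EHF (GRCh37 chromosome 11, 34642640 to 34684835, plus strand) has 3 transcripts in the table, of which NM_012153 held most of the signal and alone passed the filter of 1 FPKM in 2 libraries. Summed over the transcripts, EHF had 1.61 and 1.44 FPKM with TGF-β and 0.82 and 1.02 FPKM untreated in SOX4-shRNA cells. Scrambled-shRNA cells had 5.65 and 5.70 FPKM with TGF-β and 3.02 and 3.82 FPKM untreated. All 4 SOX4-shRNA values lay below all 4 scrambled-shRNA values.

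The summed level of EHF fell with SOX4 shRNA to 0.27 of the scrambled-shRNA mean in both conditions. In the fit of 12146 summed genes, an alternative to the fit by transcript, the difference was -1.40 ± 0.12 with TGF-β (limma, adjusted p = 0.00542) and -1.20 ± 0.12 untreated (adjusted p = 0.00785), where 2.43% and 2.93% of genes were called, 1.79% and 2.02% as lower. TGF-β gave 0.40 ± 0.12 in SOX4-shRNA cells (adjusted p = 0.136) and 0.60 ± 0.12 in scrambled-shRNA cells (adjusted p = 0.0519), neither of which was called, where 4.17% and 3.33% of genes were. In the fit by transcript, NM_012153 alone was not called: it gave -1.30 ± 0.23 with TGF-β (adjusted p = 0.137) and -1.27 ± 0.23 untreated (adjusted p = 0.124), in a fit of 19091 transcripts that called 0.0524% and 0.393%.

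The decimal mark of EHF is fixed directly in part. In the first untreated library of each kind of cell, NM_012153 had a single possible reading, 0.43 FPKM with SOX4 shRNA and 2.50 FPKM with scrambled shRNA. In the other 6 libraries the reading closest to these was taken. With both SOX4-shRNA TGF-β libraries read 10 times higher, the difference with TGF-β would be 1.28 in place of -1.40. With both scrambled-shRNA TGF-β libraries read 10 times higher, it would be -4.40. In untreated cells, reading the second SOX4-shRNA library 10 times higher would give 0.038 in place of -1.20, and reading the second scrambled-shRNA library so would give -2.71 (adjusted p = 0.202). Of 17 alternatives, 12 kept the call with TGF-β, 1 turned it and 4 lost it. It was lost without either of the 2 scrambled-shRNA TGF-β libraries (adjusted p = 0.0614 and 0.068), and with the second untreated SOX4-shRNA or the second untreated scrambled-shRNA library read 10 times higher, which leaves its difference as it was but changes the shared spread (adjusted p = 0.448 and 0.565).

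ELF3, the other ETS member, was scarce and differed the other way. Its protein is an activator of epithelial differentiation genes. ELF3 (GRCh37 chromosome 1, 201977073 to 201986311, plus strand) is nearly all NM_004433. It overlaps ELF3-AS1 on the opposite strand and an unnamed gene on its own strand. NM_004433 had 0.81 and 0.92 FPKM with TGF-β and 1.10 and 0.86 FPKM untreated in SOX4-shRNA cells. With scrambled shRNA the values were 0.25 and 0.15 FPKM with TGF-β and 0.28 and 0.43 FPKM untreated. All 4 SOX4-shRNA values lay above all 4 scrambled-shRNA values. The 7 values under 1 have no lost mark, and by the annotated length the values stand for about 5.92 to 44.5 reads, so counting error is large.

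ELF3 did not reach the filter and was tested only among 18833 summed genes without a filter, where 1.42% were called with TGF-β (0.34% as higher) and 1.4% untreated. The difference by SOX4 shRNA was 0.64 ± 0.096 with TGF-β (limma, adjusted p = 0.0474) and 0.54 ± 0.096 untreated (adjusted p = 0.0666). The call with TGF-β was lost in all 12 alternatives run for it (adjusted p = 0.051 to 0.224). The ratio of the SOX4-shRNA mean to the scrambled-shRNA mean was 4.30 with TGF-β and 2.74 untreated. TGF-β gave -0.086 ± 0.096 in SOX4-shRNA cells (adjusted p = 0.755) and -0.18 ± 0.096 in scrambled-shRNA cells (adjusted p = 0.457).

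**Figure D2:**
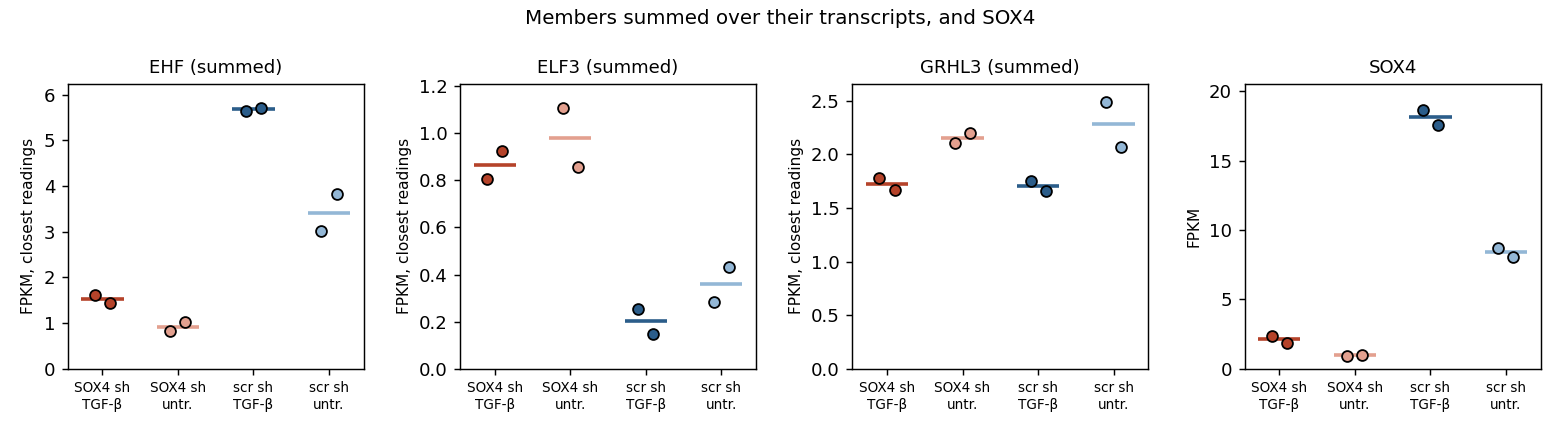
Summed FPKM of EHF, ELF3 and GRHL3 at the closest readings, and FPKM of SOX4, in the 4 groups, 1 point per library and a line at the group mean, on axes that start at 0. All 4 SOX4-shRNA points lie below all scrambled-shRNA points for EHF and SOX4, and above them for ELF3.

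GRHL3, the grainyhead-like gene of barrier formation, was not called between the kinds of cell. Of its 32 cells 6 had a lost mark, and the closest readings favour like values in all groups. The missing call therefore does not show equal levels, and other readings of the sum were not tried. Summed over 4 transcripts at the closest readings, GRHL3 (GRCh37 chromosome 1, 24526048 to 24690972, plus strand) had 1.78 and 1.66 FPKM with TGF-β and 2.11 and 2.202 FPKM untreated in SOX4-shRNA cells. The scrambled-shRNA libraries gave 1.75 and 1.65 FPKM with TGF-β and 2.49 and 2.07 FPKM untreated. The TGF-β libraries lay below the untreated ones in both kinds of cell, and neither difference was called: -0.21 ± 0.10 in SOX4-shRNA cells (limma, adjusted p = 0.314) and -0.28 ± 0.10 in scrambled-shRNA cells (adjusted p = 0.201). SOX4 shRNA gave 0.011 ± 0.10 with TGF-β (adjusted p = 0.983) and -0.054 ± 0.10 untreated (adjusted p = 0.833).

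The division of GRHL3 between its transcripts was unstable. NM_021180 had 0.039 and 1.57 FPKM in the 2 untreated SOX4-shRNA libraries. NM_001195010 had 0.47 and 0.62 FPKM in SOX4-shRNA cells with TGF-β, was below 1e-04 FPKM in 5 of the other 6 libraries and had 0.00015 FPKM in the remaining one, the first scrambled-shRNA TGF-β library. None of its cells had a lost mark, and it was called in the fit of transcripts without a filter for TGF-β in SOX4-shRNA cells (limma, adjusted p = 0.0178) and for SOX4 shRNA with TGF-β (adjusted p = 0.0252), where 0.562% and 0.339% of 35437 transcripts were called. Its interaction was not called (adjusted p = 0.0677). It was named after its values were seen, and a value near 0 can come from the estimate that divides reads between transcripts.

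**Figure D3:**
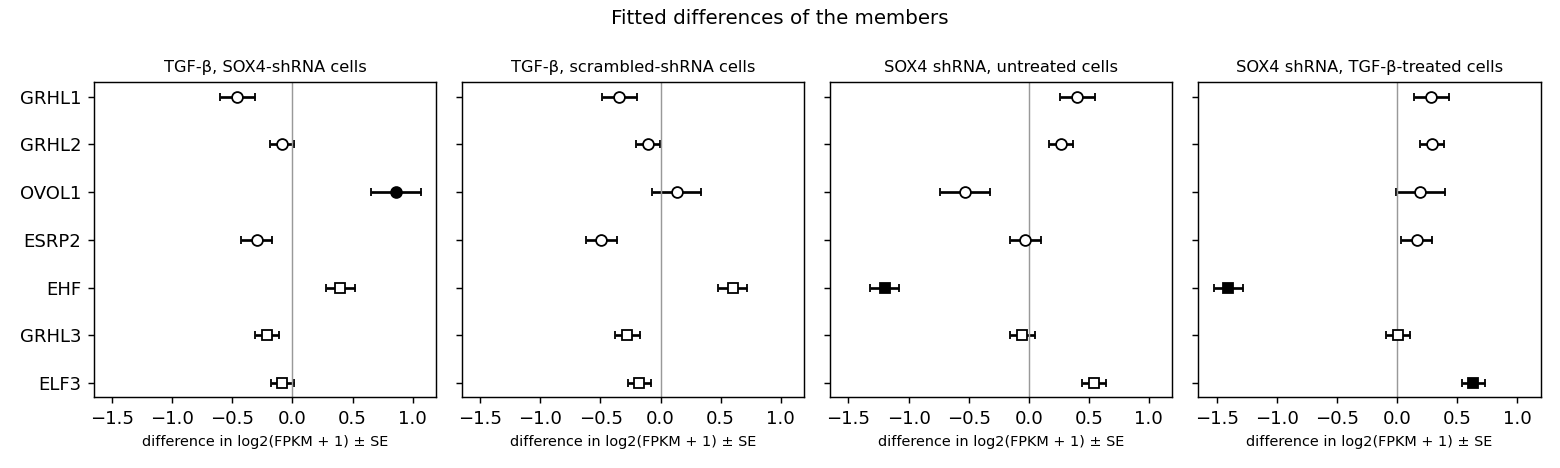
Fitted differences in log2(FPKM + 1) with their SE for 7 members in the 4 pairwise contrasts, TGF-β over untreated in the 2 left panels and SOX4 shRNA over scrambled shRNA in the 2 right panels. Circles are whole-read members and squares summed members, and filled symbols passed an adjusted p of 0.05: OVOL1 with TGF-β in SOX4-shRNA cells, EHF with SOX4 shRNA in both conditions, and ELF3 with SOX4 shRNA in TGF-β-treated cells.

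TP63 was present only as its ΔN forms. The 3 TAp63 transcripts (NM_003722, NM_001114978 and NM_001114979), which start in the outer window shown above, were below 1e-04 FPKM in all 8 libraries, and this does not depend on any lost mark. The 3 ΔNp63 transcripts were each at 1 FPKM or more in all 8 libraries under every reading. TP63 lies on GRCh37 chromosome 3, 189349178 to 189615065, plus strand.

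The ΔNp63α transcript (NM_001114980) had 4.69 and 4.43 FPKM with TGF-β and 3.94 and 3.93 FPKM untreated in SOX4-shRNA cells, at the lowest readings. In scrambled-shRNA cells it had 3.32 and 4.04 FPKM with TGF-β and 3.04 and 3.28 FPKM untreated. All of these may instead be 10 or 100 times higher, and the ratios between groups hold only if all libraries share a decade. On that condition the SOX4-shRNA values lay above the scrambled-shRNA ones in both conditions, with ratios of means of 1.24 with TGF-β and 1.24 untreated, and no difference was called (limma, adjusted p = 0.557 and 0.519). The ratio of TGF-β to untreated means was 1.16 in both kinds of cell (adjusted p = 0.625 in SOX4-shRNA and 0.624 in scrambled-shRNA cells).

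The ΔNp63β transcript (NM_001114981) had 17.2 and 9.56 FPKM with TGF-β and 11.1 and 10.6 FPKM untreated in SOX4-shRNA cells. Scrambled-shRNA cells had 15.0 and 5.85 FPKM with TGF-β and 10.7 and 7.40 FPKM untreated. The spread was widest within the TGF-β groups, and only the first scrambled-shRNA TGF-β library, at 15.0 FPKM, could not be 10 times higher, while other decades are possible for every value. The ΔNp63γ transcript (NM_001114982) had 2.34 and 1.84 FPKM with TGF-β and 1.77 and 1.77 FPKM untreated in SOX4-shRNA cells, against 1.17 and 1.19 FPKM with TGF-β and 1.99 and 1.24 FPKM untreated in scrambled-shRNA cells, at the lowest readings. Its difference by SOX4 shRNA with TGF-β was 0.50 ± 0.18 (limma, adjusted p = 0.415), and no TP63 transcript was called in any contrast.

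ESRP1 (GRCh37 chromosome 8, 95653302 to 95719694, plus strand) had 5 transcripts, all past the filter, and its reads were divided among them differently from library to library. The steadiest, NM_017697, had 3.99 and 3.05 FPKM with TGF-β and 2.98 and 2.47 FPKM untreated in SOX4-shRNA cells. With scrambled shRNA the values were 2.88 and 2.72 FPKM with TGF-β and 2.08 and 2.48 FPKM untreated, at the lowest readings. Its TGF-β libraries lay above the untreated ones in both kinds of cell, on the condition that all libraries share a decade. The differences of 0.27 ± 0.15 in SOX4-shRNA cells (limma, adjusted p = 0.53) and 0.22 ± 0.15 in scrambled-shRNA cells (adjusted p = 0.616) were not called. Other ESRP1 transcripts differed in direction. In SOX4-shRNA and scrambled-shRNA cells the ratios of TGF-β to untreated means were 0.45 and 0.70 for NM_001034915 and 0.25 and 0.73 for NM_001122827. They were 1.04 and 1.15 for NM_001122825, and 1.40 and 0.98 for NM_001122826. NM_001034915 showed the instability: it had 6.05 and 0.0021 FPKM in the 2 untreated scrambled-shRNA libraries. No level is therefore given for ESRP1 as a gene. In the fit of summed genes at closest readings, where EHF had 2 calls, ESRP1 and TP63 were called in no contrast.

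Of the 11 transcripts of TP63, ESRP1, GRHL3 and EHF that passed the filter, none was called in any contrast of the fit by transcript. In that fit TGF-β called 0.634% of transcripts in SOX4-shRNA cells and 0.293% in scrambled-shRNA cells, and the interaction called 0.162%.

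**Figure D4:**
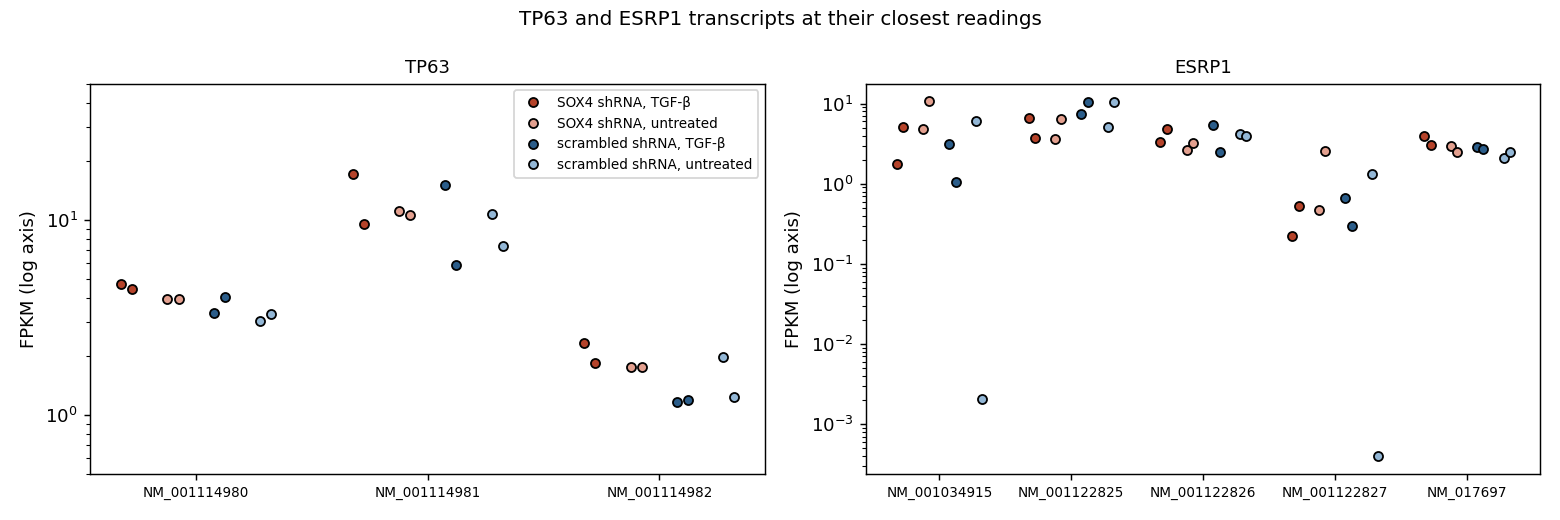
FPKM, on a log axis, of the 3 ΔNp63 transcripts of TP63 and the 5 transcripts of ESRP1 at their closest readings, 1 point per library, coloured by group. NM_001034915 and NM_001122827 of ESRP1 spread over several powers of 10 within the untreated scrambled-shRNA group, while NM_001114980 of TP63 and NM_017697 of ESRP1 stay within 2-fold over all libraries.

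FGFR2 is among the genes whose splicing the ESRP proteins are known to direct. A transcript of its epithelial IIIb form (NM_022970) was at 1 FPKM or more in all 8 libraries under every reading, whereas a transcript of the mesenchymal IIIc form (NM_000141) was below 1e-04 FPKM in all 8. The other FGFR2 transcripts were not assigned to a form, and some reached 1 FPKM, such as NM_023029 in 6 libraries. At the lowest readings NM_022970 had 6.20 and 6.62 FPKM with TGF-β and 7.04 and 5.89 FPKM untreated in SOX4-shRNA cells, against 3.77 and 3.39 FPKM with TGF-β and 5.28 and 2.94 FPKM untreated in scrambled-shRNA cells. At these readings the SOX4-shRNA values lay above all scrambled-shRNA values, and the differences of 0.69 ± 0.23 with TGF-β (limma, adjusted p = 0.377) and 0.58 ± 0.23 untreated (adjusted p = 0.428) were not called.

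For CD44, a hyaluronan receptor, a transcript with variable exons (NM_001001389) was by far the highest. It had 188 and 172 FPKM with TGF-β and 121 and 119.5 FPKM untreated in SOX4-shRNA cells, against 277 and 266 FPKM with TGF-β and 177 and 189 FPKM untreated in scrambled-shRNA cells, of which 2 values had an intact mark. Its TGF-β values were above the untreated ones in both kinds of cell, and the differences of 0.58 ± 0.089 (limma, adjusted p = 0.0729) and 0.57 ± 0.089 (adjusted p = 0.0887) were not called. It lay lower with SOX4 shRNA, with differences of -0.59 ± 0.089 with TGF-β (adjusted p = 0.11) and -0.60 ± 0.089 untreated (adjusted p = 0.0797), again with no call. The standard form without variable exons (NM_001001391) had 2.93 and 1.77 FPKM with TGF-β and 0.82 and 0.17 FPKM untreated in SOX4-shRNA cells, against 1.76 and 1.32 FPKM with TGF-β and 5.50 and 9.86 FPKM untreated in scrambled-shRNA cells, at the lowest readings. Its difference by SOX4 shRNA in untreated cells was -2.53 ± 0.35 (adjusted p = 0.0682).

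ENAH, an actin regulator, had the transcripts NM_001008493 and NM_018212. NM_018212 had 4.50 and 4.09 FPKM with TGF-β and 6.20 and 7.18 FPKM untreated in SOX4-shRNA cells, against 4.41 and 3.88 FPKM with TGF-β and 5.73 and 6.01 FPKM untreated in scrambled-shRNA cells. These are closest readings. On the condition that all libraries share a decade, the TGF-β libraries lay below the untreated ones in both kinds of cell. The differences were -0.54 ± 0.13 in SOX4-shRNA cells (limma, adjusted p = 0.166) and -0.42 ± 0.13 in scrambled-shRNA cells (adjusted p = 0.252), neither called. NM_001008493 gave -0.076 ± 0.22 (adjusted p = 0.936) and 0.17 ± 0.22 (adjusted p = 0.789) in the same contrasts. NM_001008493 had 12.8 and 8.65 FPKM with TGF-β and 9.47 and 13.1 FPKM untreated in SOX4-shRNA cells, against 7.29 and 6.74 FPKM with TGF-β and 6.20 and 6.02 FPKM untreated in scrambled-shRNA cells, at the closest readings. All 4 SOX4-shRNA values thus lay above all 4 scrambled-shRNA values, and the differences of 0.52 ± 0.22 with TGF-β (limma, adjusted p = 0.487) and 0.77 ± 0.22 untreated (adjusted p = 0.269) were not called. For NM_018212 SOX4 shRNA gave 0.042 ± 0.13 with TGF-β (adjusted p = 0.967) and 0.16 ± 0.13 untreated (adjusted p = 0.706).

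Among genes reported as targets or partners of the grainyhead-like and OVOL factors, 12 of 23 could be fitted. With TGF-β, 1 rose and 1 fell in each kind of cell. Over all 5103 genes, 7.37% were called in SOX4-shRNA cells and 6.39% in scrambled-shRNA cells. The list median was 0.0053 in SOX4-shRNA cells and -0.12 in scrambled-shRNA cells, beside -0.043 and -0.033 over all genes. CLDN4, a tight-junction claudin gene, averaged 10.4 ± 2.08 FPKM with TGF-β and 3.77 ± 1.42 FPKM untreated in SOX4-shRNA cells (SD, n = 2 each), a difference of 1.28 ± 0.22 (limma, adjusted p = 0.0136), and it rose by 1.19 ± 0.22 in scrambled-shRNA cells (adjusted p = 0.021). PPL, which encodes the cornified-envelope protein periplakin, averaged 21.0 ± 0.686 FPKM with TGF-β and 37.3 ± 2.996 FPKM untreated in SOX4-shRNA cells, against 11.1 ± 0.401 FPKM with TGF-β and 22.8 ± 1.20 FPKM untreated in scrambled-shRNA cells. PPL fell with TGF-β in both kinds of cell (-0.80 ± 0.11, adjusted p = 0.00595, and -0.97 ± 0.11, adjusted p = 0.00512).

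With SOX4 shRNA, PPL was the single gene of this list that was called: it rose by 0.86 ± 0.11 with TGF-β (limma, adjusted p = 0.00593) and by 0.69 ± 0.11 untreated (adjusted p = 0.017). Over all genes, 3.84% were called with TGF-β and 3.76% untreated. The list medians were 0.32 with TGF-β and 0.32 untreated, beside 0.016 and -0.0035 over all genes. EPCAM, an epithelial adhesion gene, gave 0.53 ± 0.17 with TGF-β (adjusted p = 0.169) and 0.51 ± 0.17 untreated (adjusted p = 0.163). CDH1 was called in no contrast.

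Of 25 reported p63 targets 3 could be fitted, and JAG1, a Notch ligand gene, rose with TGF-β by 1.25 ± 0.096 in SOX4-shRNA cells (limma, adjusted p = 0.000606) and by 1.07 ± 0.096 in scrambled-shRNA cells (adjusted p = 0.00168). Neither FAT2 nor CSTA was called in any contrast. Of 17 other genes of the members' families or of related epithelial factors, 3 could be fitted, KLF4, TFCP2L1 and OVOL2. KLF4 rose with TGF-β in SOX4-shRNA cells by 0.65 ± 0.13 (adjusted p = 0.025), and in scrambled-shRNA cells it gave 0.33 ± 0.13 (adjusted p = 0.166).

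Of 12 transcription factor genes that oppose the members in the transition, 2 could be fitted. SNAI2 rose with TGF-β by 1.09 ± 0.10 in SOX4-shRNA cells (limma, adjusted p = 0.000963) and by 0.89 ± 0.10 in scrambled-shRNA cells (adjusted p = 0.00512). TWIST1 fell with SOX4 shRNA, by 0.69 ± 0.13 on this scale with TGF-β (adjusted p = 0.0289) and by 0.77 ± 0.13 untreated (adjusted p = 0.0202). Of 12 splicing regulator genes only SRRM1 could be fitted, and it was called in no contrast. The lists of p63 targets, related genes, opposing factors and splicing regulators had only 1 to 3 fitted genes each. Their calls are too few to set against the shares of all genes called.

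The genes whose levels followed the whole-read members most closely over the 8 libraries were picked among 4694 fitted genes by Pearson's r of log2(FPKM + 1). For OVOL1 these were SERTAD1 (r = 0.989), MMP17 (0.982) and WNT7B (0.977). For ESRP2 they were VPS9D1-AS1 (0.989), ADORA2B (0.989) and CDK4 (0.983). For GRHL2 they were RBSN (0.987), OTUD1 (0.984) and DHX58 (0.981), and for GRHL1 ADNP2 (0.992), ARG2 (0.979) and CLMN (0.973). These are the highest values out of many over 8 points that share libraries and groups, and they describe likeness of pattern alone.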

How the data were processed

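RNA of 8 HMLE libraries (4 groups of 2) was sequenced as 75-nt single reads; the labels name both polyA RNA and a ribosomal depletion kit. The deposited table gives FPKM per RefSeq transcript for hg19, and TopHat2 2.0.9, Cufflinks 2.2.1 and Cuffdiff are named per the submitters' processing notes; whether counting used strand is not given in the sources used here. The authors' values are treated as another unit than plain FPKM, because in 34.1% of cells the decimal mark was lost, and 13.9% hold a value under 1e-04, set to 0 here.

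For genes with 1 transcript, values are whole reads times a length and library factor. Of 5739 such genes, 5103 had readings with a posterior probability of at least 0.95, under a prior that favours similar replicates and groups. This may shrink differences between groups. It may also shrink the spread within groups, which would make SE and p-values too small. For other transcripts the closest readings were used, within groups first, and the same limits hold for them. Filtering at 1 FPKM in 2 libraries, log2(FPKM + 1) values were fitted with limma 3.58.1 (R 4.3.3) over all 4 groups, with Benjamini-Hochberg adjustment over each whole fit. The planned tests were kept, on restored values. The whole-read search and the limma fit of whole-read genes were run on simulated data. The closest readings, the sums over transcripts and the fits without a filter were not.

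The 9 genes and the gene lists were chosen with earlier results of these data known. Named genes are all members, up to 4 fitted genes of each list by smallest p, and the 3 genes with the highest r to each whole-read member. Library scales were 12.6 M to 16.7 M reads, and the fitted genes had medians of 351.5 to 469 reads. Libraries of a group differed by more than counting noise, and library numbers were not used as pairs, since the deviations of equal numbers went together within a treatment and apart between treatments. Alternatives covered pseudocounts, filters, scalings, voom, the compared groups alone, left-out libraries and other readings.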

Additional observations from a re-analysis of the deposited data

How the results depend on the processing

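Called genes by limma numbered 376 for TGF-β in SOX4-shRNA cells, 326 for TGF-β in scrambled-shRNA cells, 192 for SOX4 shRNA untreated, 196 for SOX4 shRNA with TGF-β and 9 for the interaction. With no filter the first 4 were 250, 203, 111 and 114. With a filter of 5 FPKM SOX4 shRNA gave 117 untreated and 110 with TGF-β. The compared groups alone gave 99, 872 and 36 for the first 3, and all transcripts at closest readings 121, 56, 75, 10 and 31. Voom gave 0 for the interaction. The replicate block gave 197, 140, 104 and 89 genes, and 0 calls of whole-read members. Deviations of equal numbers correlated at 0.318 (with TGF-β) and 0.512 (untreated) within a treatment, and at -0.63 to -0.17 between treatments; the labels tie the numbers to nothing shared. A crossed pairing, chosen after seeing the data, gave 1111, 1183, 732 and 556 genes and 4 calls of whole-read members, 2 of OVOL1 and 2 of ESRP2. Leaving out 1 library gave 151 to 239, 15 to 367, 20 to 194, 29 to 190 and 8 to 10.

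Over 5 contrasts the whole-read members had 1 call, 0 with no filter and at closest readings, 2 with voom, and 0 to 1 without 1 library. A filter of 5 FPKM left 0 calls because it removed OVOL1 itself. The member transcripts had 0 calls; the number was 2 with no filter (NM_001195010 of GRHL3), 2 with summed transcripts (EHF) and 0 without 1 library. Reading 1 group 10 times higher gave 11 (SOX4 shRNA, TGF-β), 9 (SOX4 shRNA, untreated), 10 (scrambled, TGF-β) and 12 (scrambled, untreated).

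ESRP2 by SOX4 shRNA untreated turned to 0.0063 under quantile normalization. For EHF, higher readings turned SOX4 shRNA with TGF-β to 1.28 and untreated to 0.038, TGF-β in SOX4-shRNA cells to -0.84 and in scrambled-shRNA cells to -0.91, and the interaction to 2.48 or 1.30. Directions also turned when 1 library was left out. The ranges were -0.27 to 0.039 (GRHL1 interaction), -0.020 to 0.060 (GRHL2 interaction), -0.013 to 0.28 (OVOL1, TGF-β, scrambled), -0.030 to 0.42 (OVOL1, SOX4 shRNA with TGF-β) and -0.14 to 0.081 (ESRP2, SOX4 shRNA untreated). For GRHL3 they were -0.15 to 0.038 (SOX4 shRNA untreated), -0.020 to 0.043 (with TGF-β) and -0.027 to 0.16 (interaction), and for ELF3 -0.18 to 0.0042 (TGF-β, SOX4 shRNA). The cause was not tested. ELF3, GRHL1 and OVOL1 rest on few reads, and 2 libraries a group limit every test.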
